A study of Mus musculus with 11 samples.

Results

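The 10 genes of the interleukin-1 (IL-1) family and its inflammasome studied here (Il1a, Il1b, Il1rn, Il1r1, Il1r2, Il18, Il33, Il1rl1, Nlrp3 and Casp1) were read from single-cell RNA counts of whole mouse lung. They were chosen by symbol, and all 10 were found among the 31053 genes counted. Single-cell 3′ RNA libraries had been made from lungs digested with dispase and collagenase, with red cells lysed. By its title, the study induces mTert (the telomerase gene Tert of the mouse) in cells positive for p21 (gene Cdkn1a). Per the labels, the groups were 1 wild-type library (WT, +/+), 3 p21Het libraries (heterozygotes, +/-), 5 p21mTert libraries (+/mTert) and 2 p21mTertCD libraries (+/mTertCD, not spelled out further). By these labels each replicated group carries 1 + allele of p21, and how the mTert alleles were built is not described in the labels. Mice were 18 months old by the age label, except p21Het_1 at 19 and p21mTert_1 at 20, whose titles give 18. The labels do not say that each library came from 1 animal, so p-values measure the spread between libraries only.

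IL-1α and IL-1β (Il1a, Il1b) are inflammatory cytokines that signal through the receptor IL1R1, while IL1R2 is a decoy that binds them without signalling and IL1RN is a secreted antagonist. IL-18 and IL-33 are relatives with receptors of their own, ST2 (Il1rl1) being that of IL-33. The sensor NLRP3 assembles inflammasomes in which caspase-1 (Casp1) cuts the precursors of IL-1β and IL-18 to their active forms, whereas IL-33 acts as an alarm signal released from damaged barrier cells. RNA levels therefore describe the supply of precursors and receptors, not the amount of active cytokine.

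By GENCODE M21 on GRCm38, all members are protein-coding. Il1r2 (chr1:40074079-40125231), Il1r1 (chr1:40225080-40317257) and Il1rl1 (chr1:40429570-40465415) lie in a row on the plus strand of chromosome 1. Il1a (chr2:129299610-129309972) and Il1b (chr2:129364570-129371139) are neighbours on the minus strand of chromosome 2, and Il1rn (chr2:24336853-24351494) lies on the same chromosome. Casp1 (chr9:5298517-5307265) and Il18 (chr9:50554827-50581840) are on chromosome 9, Nlrp3 (chr11:59541568-59566956) on chromosome 11 and Il33 (chr19:29925114-29960718) on chromosome 19. Below are the 120 bases before the RefSeq start sites (GRCm38.p6) of 4 genes whose levels carry the results: the adjoining genes Il1a and Il1b, which led in different cells, the decoy gene Il1r2, which led in the same cells as Il1b, and Il18. They are chr2:129309973-129310092 and chr2:129371140-129371259 on the minus strand and chr1:40085973-40086092 and chr9:50554580-50554699 on the plus strand. The Il1r2 stretch lies inside the GENCODE interval of Il1r2 given above, so it precedes a start site within that interval. Capitals mark matches to the TATA box (TATAAA) or to the C/EBP motif (TTNNGNAAT).
Il1a: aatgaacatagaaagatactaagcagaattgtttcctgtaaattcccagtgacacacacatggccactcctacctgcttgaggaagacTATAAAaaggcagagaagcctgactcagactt
Il1b: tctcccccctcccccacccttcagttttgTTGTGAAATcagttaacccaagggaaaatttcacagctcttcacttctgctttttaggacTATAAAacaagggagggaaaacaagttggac
Il1r2: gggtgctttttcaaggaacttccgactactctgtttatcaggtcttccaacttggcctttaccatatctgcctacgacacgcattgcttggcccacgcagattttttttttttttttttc
Il18: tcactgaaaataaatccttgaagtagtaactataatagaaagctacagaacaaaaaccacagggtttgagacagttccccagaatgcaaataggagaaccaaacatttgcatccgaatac
Il1a and Il1b both hold TATAAA, at bases -32 to -27 and -31 to -26 before the start. Il1b alone of these 4 stretches also holds a C/EBP match, at bases -91 to -83. Both strands were searched in windows of 250 bases before to 50 after each start, and 16 windows matched the 10 members. Among all 32851 windows of the table, 13.6% hold TATAAA and 11.5% the C/EBP motif.

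Of 81983 deposited barcodes, 69267 had 1000 to 30000 UMIs (unique molecular identifiers), no more than 14% of them mitochondrial, and were used. Libraries held 42038434 to 85988955 UMIs in total and 4721 to 8525 filtered cells, with median depths of 4133 to 6454 UMIs. In 1238 cells (1.79%) the barcode also occurred in another library, at most 20 times for any pair of libraries. WT_1, p21Het_1 and p21mTert_1 came from an earlier deposit than the other 8 libraries. Tert was at 0.544 to 0.842 UMIs per 1000000 UMIs of the sum (CPM) in p21Het, 1.13 in WT, 2.00 to 3.28 in p21mTert and 1.90 to 2.59 in p21mTertCD. Cdkn1a was at 118 to 187 CPM over all libraries. Composition set some libraries apart: p21Het_3 was 24.7% neutrophils against 2.58% in p21Het_2, and p21mTertCD_1 held 1.13% B cells and 30.0% T cells. Lineages were gated from marker genes, none of which is a member, and 29 gated lineages (with 4 T cell subsets read apart) held 61207 cells (88.4%).

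The lung's Il1b RNA came mostly from neutrophils. Their Il1b level was 9281 ± 1989 CPM (SD, n = 11 libraries), against 1758 ± 510 in type 2 conventional dendritic cells (cDC2), 1356 ± 413 in interstitial macrophages, 998 ± 461 in non-classical monocytes, 714 ± 269 in classical monocytes and 507 ± 170 in type 1 conventional dendritic cells (cDC1). Neutrophils were above cDC2 in 11 of 11 libraries without overlap, by 2.43 ± 0.56 on the log2(CPM + 1) scale (2-sided exact paired permutation test, p = 0.000977, the smallest 11 libraries allow, adjusted p = 0.00488 over the 10 members). From cDC2 down to cDC1 each lineage overlapped its neighbour in this order. The 2 lineages of each such test were picked by the same levels, so its p describes how steady the order was over libraries. Of 319435 Il1b UMIs, 62.7% lay in neutrophils, 7.39% in interstitial macrophages and 6.84% in classical monocytes. By library the neutrophil share was lowest in p21Het_2, at 38.8%, where interstitial macrophages held 25.2%, and highest in p21Het_3, at 79.8%.

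**Figure D1:**
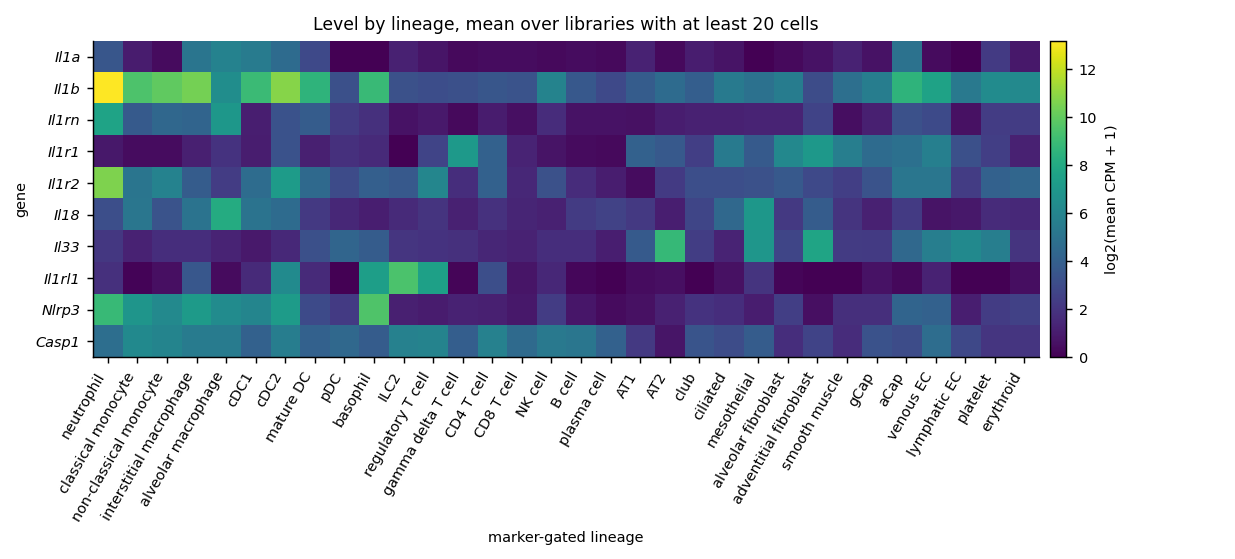
Level of each gene (rows) in each marker-gated lineage (columns), as log2 of the mean CPM plus 1 over libraries with at least 20 cells of the lineage; 6 libraries reached this for basophils and for ILC2, and 11 for neutrophils. Il1b and Il1r2 are brightest in neutrophils, Il33 in AT2 cells, Il18 in alveolar macrophages and Il1rl1 in ILC2.

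Low Il1b UMIs in cells not known for making it came with UMIs of neutrophil genes. Erythroid cells, which have no known use for the cytokine, held 6.63 S100a8 UMIs (a granule protein gene of neutrophils) per Il1b UMI, and B cells 4.78, against 7.85 in neutrophils. Other such lineages ranged from 2.27 in mesothelial cells and 3.30 in general capillary cells (gCap) to 16.3 in club cells. Alveolar macrophages, at 2.84, lay inside that range, whose ends rested on 103 Il1b UMIs in mesothelial cells and 53 in club cells. Interstitial macrophages, by contrast, held 0.127 and cDC2 0.0581. When each cell was thinned to 1000 UMIs, Il1b was seen in 97.7% ± 1.89 of neutrophils (n = 11), 51.9% ± 9.68 of cDC2 (n = 11) and 1.99% ± 1.42 of erythroid cells (n = 9). The unthinned shares were 99.1%, 76.7% and 4.73%, at median depths of 3831, 14964 and 3562 UMIs.

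**Figure D2:**
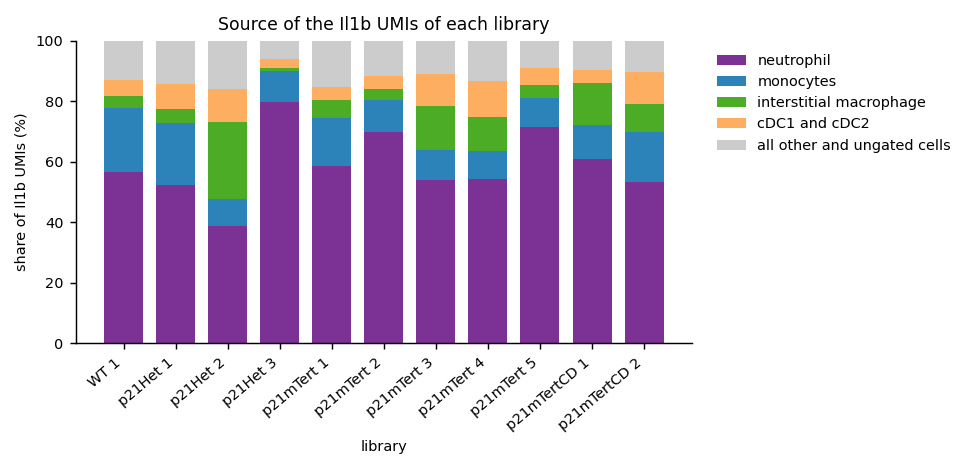
Share of each library's Il1b UMIs (y axis, %) held by neutrophils, both monocyte lineages, interstitial macrophages, both cDC lineages and all other cells, one bar per library. Neutrophils hold 38.8% (p21Het_2) to 79.8% (p21Het_3).

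Il1a, the neighbouring ligand gene, was spread over other cells. Alveolar macrophages, the resident phagocytes of the air spaces, had 57.0 ± 20.3 CPM, cDC1 43.9 ± 31.8, interstitial macrophages 33.8 ± 23.3 (n = 11 each) and aerocyte capillary cells (aCap) 30.6 ± 10.7 (n = 10). None of these neighbours was apart from the next: alveolar macrophages exceeded cDC1 in 6 of 11 libraries, and the difference of 0.65 ± 1.48 log2 did not pass the exact paired permutation test (p = 0.179, adjusted p = 0.199). Alveolar macrophages nonetheless held 59.0% of all 5411 Il1a UMIs, and neutrophils were at only 10.3 ± 10.9 CPM.

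Il18 was an alveolar macrophage gene in these lungs, at 274 ± 84.5 CPM and with 71.2% of its UMIs there. Mesothelial cells, the lining of the lung surface, followed at 123 ± 21.01 CPM (n = 7) and classical monocytes at 35.1 ± 11.8 CPM (n = 11). Alveolar macrophages were higher than mesothelial cells in 7 of 7 libraries, by 1.05 ± 0.44 log2 (exact paired permutation test, p = 0.0156, adjusted p = 0.0260). Mesothelial cells lay above classical monocytes without overlap. Of 239 mesothelial cells 109 (45.6%) were marked as likely doublets, and without these the difference from alveolar macrophages was 1.07 ± 0.41 over the 3 libraries left, with alveolar macrophages higher in 3 of 3. The exact paired permutation test gave adjusted p = 0.278 there, and 3 libraries cannot give a p below 0.25. Without these cells the mesothelial level was 129.7 ± 27.7 CPM for Il18 (n = 3).

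Il33 came from barrier and stromal cells. AT2 cells, the surfactant-making cells of the alveoli, had 446 ± 136 CPM (n = 11) and 90.2% of the 32786 Il33 UMIs. Adventitial fibroblasts followed at 209 ± 91.4 (n = 10), then mesothelial cells at 121 ± 30.1 (n = 7; 121 ± 33.6 without likely doublets, n = 3) and lymphatic endothelium at 76.2 ± 27.3 (n = 9). AT2 exceeded adventitial fibroblasts in 9 of 10 libraries, by 1.18 ± 0.80 log2 (exact paired permutation test, p = 0.00391, adjusted p = 0.00977). After thinning, 29.8% ± 6.62 of AT2 cells and 0.391% ± 0.376 of erythroid cells held an Il33 UMI (79.2% and 1.19% unthinned, at median depths of 18391 and 3562 UMIs).

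The receptors divided by cell type. Il1r1, the signalling receptor gene, was highest in gamma delta T cells (141 ± 42.3 CPM, n = 11) and adventitial fibroblasts (130 ± 35.9, n = 10), whose difference did not pass the exact paired permutation test (0.22 ± 0.67 log2, p = 0.320, adjusted p = 0.320). Alveolar fibroblasts had 70.3 ± 22.0 CPM and venous endothelium 49.7 ± 14.4 (n = 11 each). In erythroid cells Il1r1 was at 1.35 ± 1.20 CPM (n = 9).

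Il1r2, the decoy gene, was a neutrophil gene: 1596 ± 374 CPM against 151 ± 95.9 in cDC2, higher in 11 of 11 libraries without overlap (3.51 ± 0.60 log2, exact paired permutation test, p = 0.000977, adjusted p = 0.00488). Neutrophils held 82.5% of the 50498 Il1r2 UMIs. Regulatory T cells (Treg) came next at 65.1 ± 32.9 CPM (n = 10). In them the ratio of Il1r2 to Il1b was far from that of neutrophils, with 961 Il1r2 UMIs per 100 Il1b UMIs (221 against 23) where neutrophils had 20.8 and erythroid cells 25.2. Treg were not alone in this, as CD4 T cells had 154 (271 against 176). On few UMIs the ratio was also high in ILC2 (14 against 10), plasmacytoid dendritic cells (32 against 23) and adventitial fibroblasts (23 against 23).

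Il1rl1, the gene of the IL-33 receptor ST2, was highest in group 2 innate lymphoid cells (ILC2), which answer IL-33 with type 2 cytokines: 688 ± 154 CPM in the 6 libraries with at least 20 such cells. Treg had 178 ± 72.7 CPM (n = 10), basophils 169 ± 84.0 (n = 6) and cDC2 77.7 ± 26.6 (n = 11). ILC2 exceeded Treg in 6 of 6 libraries without overlap, by 1.79 ± 0.63 log2 (exact paired permutation test, p = 0.0312, the smallest 6 libraries allow, adjusted p = 0.0391). After thinning, 49.3% ± 13.9 of ILC2 and 12.05% ± 5.63 of Treg held an Il1rl1 UMI. The unthinned shares were 87.9% and 30.6%, against 0.0793% in erythroid cells, at median depths of 5292, 4817 and 3562 UMIs.

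Il1rn, the antagonist gene, led in neutrophils at 202 ± 39.5 CPM, with alveolar macrophages next at 125 ± 44.0 (n = 11 each). The difference was 0.74 ± 0.72 log2, with neutrophils higher in 10 of 11 libraries (exact paired permutation test, p = 0.00586, adjusted p = 0.0117). By UMIs the order was the other way: alveolar macrophages held 40.5% of the 13273 Il1rn UMIs and neutrophils 34.9%. Alveolar macrophages held more in 9 of 11 libraries, the exceptions being p21Het_3 (505 UMIs against 1337 in neutrophils) and p21mTertCD_1 (761 against 789). Per 100 Il1b UMIs, alveolar macrophages held from 79.9 Il1rn UMIs in p21Het_2 to 1567 in WT (423 against 27), with a median of 121 over the 11 libraries and more Il1rn than Il1b in 7. Neutrophils held 1.21 to 4.33 and cDC2 0 to 1.82, so neither overlapped alveolar macrophages. The Il1b UMIs of alveolar macrophages came with 2.84 S100a8 UMIs each, inside the range of the low lineages described above. The part of neutrophil RNA in this Il1b count was not tested.

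Of the inflammasome pair, Nlrp3 was highest in basophils (758 ± 49.4 CPM, n = 6), then neutrophils (471 ± 74.9, n = 11), cDC2 (148 ± 40.1, n = 11) and interstitial macrophages (144 ± 42.4, n = 11). Basophils were above neutrophils in 6 of 6 libraries without overlap, by 0.65 ± 0.20 log2 (exact paired permutation test, p = 0.0312, adjusted p = 0.0391), and neutrophils above cDC2 in 11 of 11. With 257 gated cells, basophils gave few UMIs, so neutrophils still held 38.7% of the Nlrp3 total. After thinning, 42.4% ± 6.48 of basophils, 35.3% ± 3.95 of neutrophils and 0.419% ± 0.388 of erythroid cells held an Nlrp3 UMI (87.7%, 67.9% and 1.07% unthinned, at median depths of 5382, 3831 and 3562 UMIs).

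Casp1 was low and broad. Classical monocytes had 75.1 ± 9.29 CPM and non-classical monocytes 61.2 ± 10.2 (n = 11 each), a difference of 0.30 ± 0.15 log2 seen in 10 of 11 libraries (exact paired permutation test, p = 0.00195, adjusted p = 0.00651). Treg (58.6 ± 12.1, n = 10), CD4 T cells (55.1 ± 15.5, n = 11) and ILC2 (54.7 ± 29.9, n = 6) overlapped them. Over all libraries T cells held 17.7% of Casp1 UMIs, classical monocytes 14.6%, alveolar macrophages 13.9% and B cells 13.5%. The library with the most T cells was p21mTertCD_1 (1968). With that library left out, B cells held 16.0%, classical monocytes 14.9%, T cells 13.7% and alveolar macrophages 13.3%. T cells held the most in 4 libraries, B cells in 3, classical monocytes in 3 and alveolar macrophages in 1. In all, 8 of the 10 members had a leading lineage above the next at an unadjusted exact p under 0.05, Il1a and Il1r1 being the others. The same test, run after the members were seen, gave this for 43.7% of 12045 genes with a leading level of at least 20 CPM. Adjusted over all those genes it left 6 members, without Il1rl1 and Nlrp3, and 32.6% of genes. Adjusted in this way, the later deposit alone left 0 members and 0% of genes. Without likely doublets 5 members and 25.8% of genes were left, and under the stricter gate 5 of 9 members and 23.6%. In the main setting the members' median difference was 0.89 log2, and that of all genes tested 0.42.

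Across the 32 lineages and T cell subsets, the pair of members with the most similar profile of mean log2(CPM + 1) was Il1b and Nlrp3 (Pearson r = 0.91), followed by Il1b with Il1r2 (0.76) and Il1b with Il1rn (0.75). These points share libraries and the low counts described above. Among 12112 genes reaching 20 CPM in a lineage, the 3 most like Il1b were Nlrp3, Trpm2 (0.90) and Mybpc3 (0.90). For Il1r2 they were A530064D06Rik (0.80), 1600010M07Rik (0.79) and Mefv (0.77), the last the pyrin gene, and for Il1rn Slc7a11 (0.91), Fpr2 (0.91) and Mcemp1 (0.91). Nlrp3 was nearest to Igsf6 (0.95), Mybpc3 (0.95) and Ccl6 (0.93), and Casp1 to Sash3 (0.84), Baz1a (0.83) and Rgs19 (0.83). Il1a was nearest to Xlr (0.80), Clec5a (0.76) and Slc9a4 (0.74), Il18 to Celf4 (0.86), Naaa (0.80) and Mfsd7a (0.79), and Il33 to Prcd (0.83), Trib3 (0.75) and Ntn1 (0.75). Il1r1 was nearest to Acyp2 (0.81), Dlg5 (0.80) and Nr1d1 (0.80), and Il1rl1 to Ccr8 (0.74), Cd200r1 (0.74) and Il13 (0.73), the last a type 2 cytokine gene.

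Of the pathway's other genes, Il1f9 (IL-36γ) was the ligand measured in neutrophils, at 191 ± 50.0 CPM, while Il1f5, Il1f8 and Il1f10 gave no UMI in any lineage read. Il1rap, the co-receptor of IL1R1 and ST2, was also highest in neutrophils (260 ± 65.6 CPM). Il18r1, the IL-18 receptor gene, was at 552 ± 133 CPM in mesothelial cells (n = 7; 646 ± 189 without likely doublets, n = 3) and 510 ± 96.5 in gamma delta T cells (n = 11), and its partner Il18rap at 410 ± 81.2 in basophils (n = 6) and 343 ± 90.1 in NK cells (n = 11). Among inflammasome genes in the lineages that led for a member, Txnip was highest in neutrophils (1417 ± 144 CPM), followed by Pycard (the adaptor ASC) in classical monocytes (274 ± 45.8) and Ninj1, a membrane rupture gene, in neutrophils (236 ± 32.2). Among signalling genes these were Nfkb1 in ILC2 (1137 ± 173 CPM, n = 6), Ikbkb in classical monocytes (260 ± 56.7) and Tab2 in gamma delta T cells (151 ± 23.4). Among response genes they were Nfkbia in basophils (7090 ± 1748 CPM, n = 6), Cxcl2 in neutrophils (3850 ± 1253) and Il6 in basophils (2964 ± 593, n = 6).

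Genotypes were then compared, starting with the whole lung. In sums over all filtered cells, fewer cells of a type and less RNA per cell cannot be told apart. Il1b was at 603 CPM in WT, at 582, 259 and 1347 in p21Het_1 to p21Het_3, at 814, 482, 297, 417 and 758 in p21mTert_1 to p21mTert_5, and at 647 and 574 in the p21mTertCD libraries. The p21Het libraries thus spanned all others, with the neutrophil-rich p21Het_3 on top. Il1r2 was at 348 CPM in p21Het_3 and at 24.5 to 126 in the other 10 libraries. The neutrophil share itself was 11.1% ± 11.9 in p21Het (n = 3), 6.68% ± 2.44 in p21mTert (n = 5), 9.80% ± 4.23 in p21mTertCD (n = 2) and 5.47% in WT. The 2-sided exact permutation test gave p = 0.643 for p21mTert against p21Het (adjusted p = 0.964), and no contrast passed. Its smallest p is 0.0357 there, 0.0952 for p21mTert against p21mTertCD and 0.2 for p21mTertCD against p21Het. Adjusted over these 3 contrasts none could pass, so the test cannot decide whether the shares differed.

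**Figure D3:**
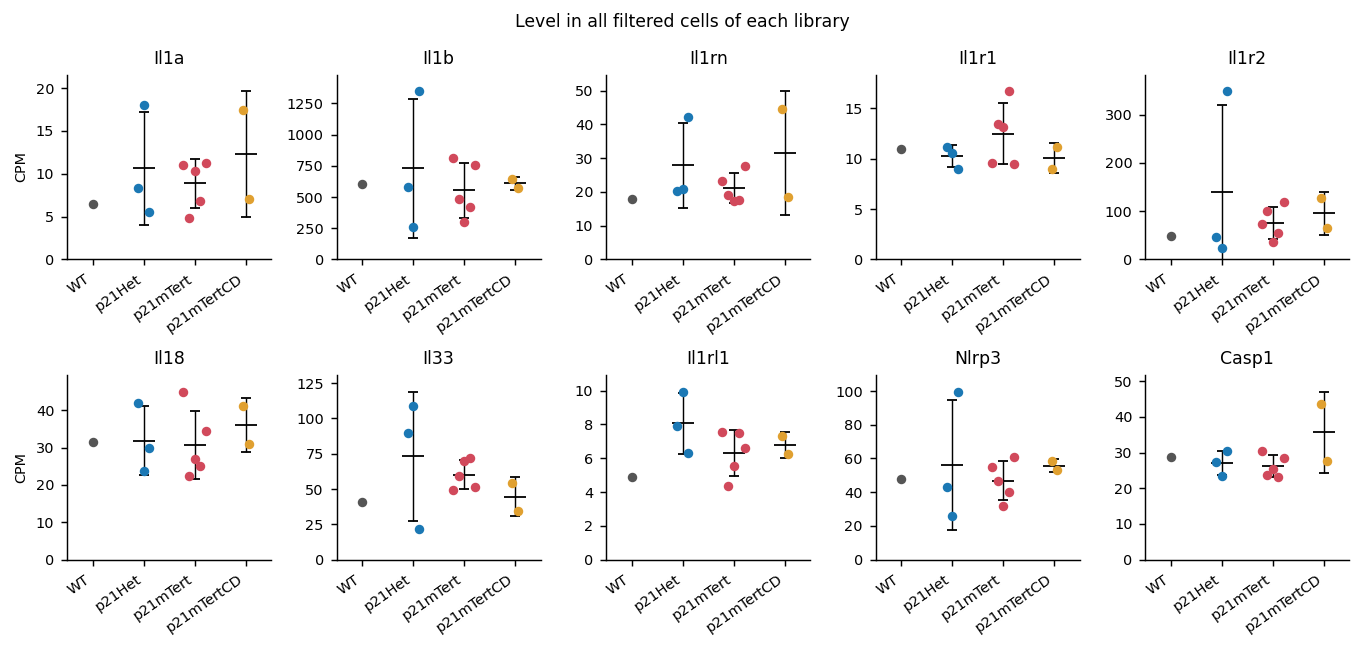
CPM of each gene (y axis) in all filtered cells of each library (points), by genotype (x axis), with mean and SD where a genotype has more than 1 library. The genotypes overlap, and p21Het_3 is the highest point for Il1b, Il1r2 and Nlrp3.

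No member passed edgeR's quasi-likelihood test in all filtered cells: 0 of 10 in p21mTert against p21Het, 0 of 10 in p21mTert against p21mTertCD and 0 of 10 in p21mTertCD against p21Het. The background of called genes was as low, at 0.0114%, 0.00571% and 0.12% of 17503 genes. At an unadjusted p under 0.05 there were 0, 1 and 0 members, the 1 being Casp1, against 7.24%, 16.1% and 6.26% of all genes. DESeq2 called 0 members in each contrast, against 0.178%, 3.89% and 1.09% of genes. The members' median log2 difference was -0.34 in p21mTert against p21Het, where that of all genes was 0.01. Without p21Het_3 the median was 0.02. Of the members with high levels in neutrophils, Il1b went from -0.47 (adjusted p = 0.786) to 0.42 (adjusted p = 0.943), Il1r2 from -0.98 (adjusted p = 0.735) to 1.14 (adjusted p = 0.889) and Nlrp3 from -0.34 (adjusted p = 0.808) to 0.45 (adjusted p = 0.889), all by edgeR. Il33 went the other way, from -0.31 (adjusted p = 0.841) to -0.74 (adjusted p = 0.889), and Il1a from -0.34 to -0.64 (adjusted p = 0.913). Il1rn, also highest in neutrophils, was at -0.48 (edgeR adjusted p = 0.722) and reached at most 0.0066 with any 1 library left out. The 3 contrasts share libraries, so their values are not independent.

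The ratio of antagonist to ligand RNA overlapped between the genotypes. Per 100 Il1b UMIs there were 2.95 Il1rn UMIs in WT, 3.51, 8.09 and 3.14 for p21Het, 2.87, 3.99, 5.84, 4.21 and 3.67 for p21mTert, and 6.87 and 3.23 in p21mTertCD. The highest ratios were those of p21Het_2 and p21mTertCD_1, and the groups overlapped. On the log2 scale p21mTert was lower than p21Het by 0.16 (mean -4.64 ± 0.37 against -4.48 ± 0.75), with p = 0.714 and adjusted p = 1 by the 2-sided exact permutation test, whose smallest p is 0.0357 here, 0.0952 for 5 libraries against 2 and 0.2 for 2 against 3. With these limits no contrast could pass once adjusted over the 3. Without p21Het_2 the difference of p21mTert from p21Het turned to 0.27, and without p21Het_3 it was -0.41.

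Within neutrophils the levels of Il1b, Il1r2 and Il1rn overlapped between the replicated genotypes. A p that misses the threshold does not show that groups are alike. Neutrophil Il1b was at 12845 CPM in WT, 10180, 6659 and 7896 for p21Het, 12231, 8611, 8920, 9778 and 9405 for p21mTert, and 6515 and 9054 in p21mTertCD. WT was highest and p21mTertCD_1 lowest, and the replicated groups overlapped. By edgeR's quasi-likelihood test, p21mTert differed from p21Het in neutrophils by 0.13 (SE 0.12, adjusted p = 0.922) for Il1b, 0.03 (SE 0.24, adjusted p = 0.998) for Il1r2, -0.26 (SE 0.24, adjusted p = 0.928) for Il1rn and 0.27 (SE 0.16, adjusted p = 0.827) for Nlrp3. Nlrp3 in p21Het neutrophils, at 386, 350 and 413 CPM, lay below p21mTert at 485, 487, 575, 536 and 443 CPM, as 3.52% of 6996 genes did in neutrophils, and the test did not call it.

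For the other members compared in their own leading lineages, no genotype difference passed either. Il33 in AT2 cells was at 259 CPM in WT, 483, 703 and 308 for p21Het, 439, 389, 438, 447 and 405 for p21mTert, and 675 and 363 in p21mTertCD. The 5 p21mTert libraries lay inside the range of p21Het, and edgeR gave a difference of -0.25 (SE 0.25, adjusted p = 0.936). Il18 in alveolar macrophages was lowest in p21Het_2, at 124 CPM, and highest in WT, at 426 CPM, with 0.24 (SE 0.24, adjusted p = 0.856) between p21mTert and p21Het. Differences were -0.22 (adjusted p = 0.905) for Il1a in alveolar macrophages, -0.04 (adjusted p = 1.0) for Il1r1 in gamma delta T cells, -0.34 (adjusted p = 0.997, 2 libraries against 2) for Il1rl1 in ILC2 and 0.14 (adjusted p = 0.914) for Casp1 in classical monocytes, all by edgeR. Basophils reached 20 cells in only 1 p21Het library and no p21mTertCD library, so Nlrp3 was not compared there.

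**Figure D4:**
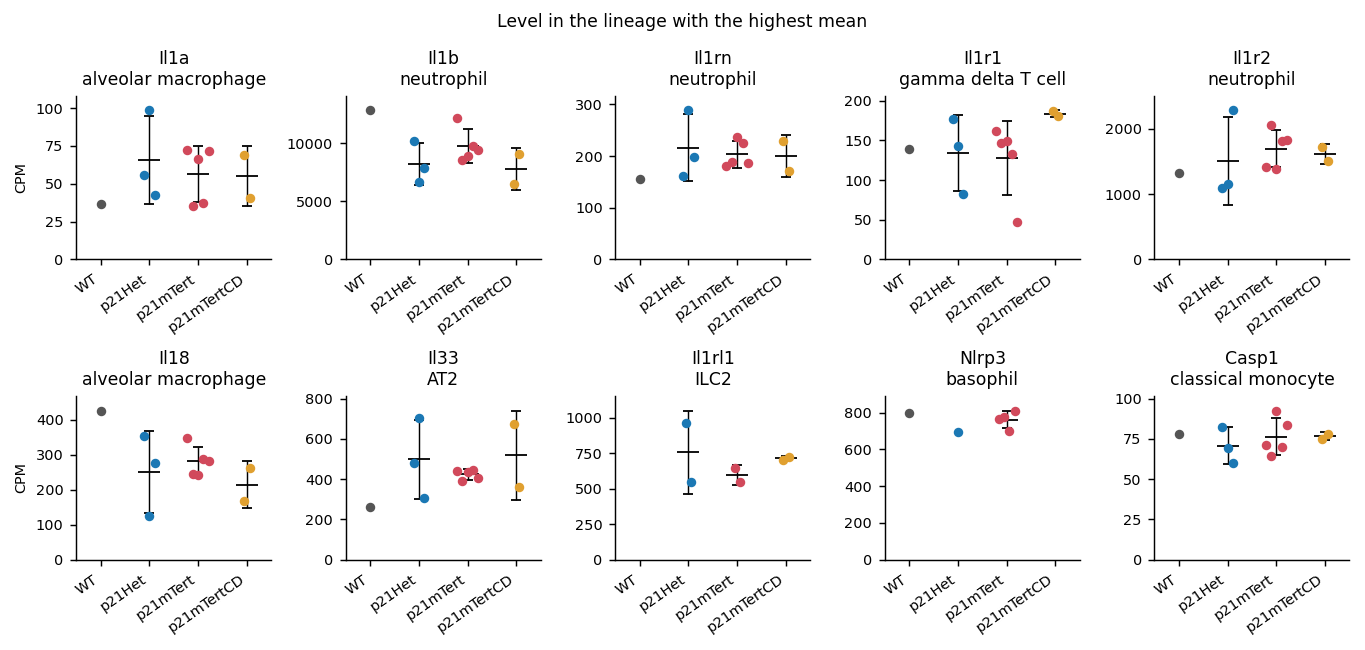
CPM of each gene (y axis) in the lineage where its mean is highest, per library (points) and genotype (x axis), for libraries with at least 20 cells of the lineage; bars give mean and SD. Genotypes overlap in most panels; Il1r1 in gamma delta T cells has 1 low p21mTert library, at 46.9 CPM.

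Over 26 lineages and T cell subsets, each contrast had 121 tests of members. Of these, 0 were called in p21mTert against p21Het (background 0.0272% of all gene tests), 0 in p21mTert against p21mTertCD (background 0.042%) and 1 in p21mTertCD against p21Het (background 0.0622%). At an unadjusted p under 0.05 there were 12, 14 and 16, that is 9.92%, 11.6% and 13.2% of member tests against 5.11%, 6.43% and 5.46% of all gene tests. DESeq2 called 2 of 118, 3 of 115 and 1 of 120 members with an adjusted p, against 0.0963%, 0.245% and 0.338% of all gene tests. Without the filter on low counts edgeR called 15, 14 and 10 of 255, that is 5.88%, 5.49% and 3.92%, against 0.493%, 0.578% and 0.527% of all gene tests. These fits hold 255 member tests per contrast in place of 121, the added ones on counts low enough for the filter to remove. T cell subsets lie within T cells, so the tests of members are not independent. The members were chosen with earlier results of these data known, so their shares are no test of an excess.

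The member called was Il18 in classical monocytes, blood-derived cells that can become macrophages in tissue. Its level was 17.4 CPM in WT (95% Poisson interval 12.5 to 23.6, counting error only), 30.4, 18.9 and 22.9 for p21Het, 38.3, 35.9, 34.0, 43.1 and 50.4 for p21mTert, and 50.6 and 44.7 in p21mTertCD. Every library of both mTert alleles was above every p21Het library and above WT. Among 8346 genes with a mean of at least 5 CPM in these cells, 0.863% had both mTert groups above p21Het without overlap, 1.35% had at least p21mTert above it and 5.56% at least p21mTertCD.

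For p21mTertCD against p21Het the log2 difference was 1.06 (SE 0.18, edgeR adjusted p = 0.00721), in a fit that called 81 of 9193 genes (0.881%). For p21mTert against p21Het it was 0.80 (SE 0.16), which missed the threshold with an adjusted p of 0.0834 (background 0.131%) but passed with DESeq2 (adjusted p = 0.0159), and p21mTert against p21mTertCD gave -0.26 (adjusted p = 0.913). In the later deposit alone, with 2 p21Het and 2 p21mTertCD libraries, both differences from p21Het were larger. They were 1.24 (edgeR adjusted p = 0.00274) for p21mTertCD and 1.01 (adjusted p = 0.0239) for p21mTert. The p21Het library outside that deposit, p21Het_1, had the highest Il18 level of its group, at 30.4 CPM. With shared replicate numbers as a block on that deposit, the p21mTertCD difference missed the threshold (values in the last section). The p21mTertCD call rested on few libraries: without p21Het_3 it was 0.97 (adjusted p = 0.0544) and without p21mTertCD_1 0.91 (adjusted p = 0.194). Per library, 51 to 489 classical monocytes gave 18 to 228 Il18 UMIs.

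RNA of other cell types in the classical monocyte sums was read from their marker lists. The 8 alveolar macrophage markers summed to 5.37 to 79.1 CPM in p21Het classical monocytes, 2.11 to 25.1 for p21mTert, 9.54 to 20.4 in p21mTertCD and 2.97 in WT, against 3731 to 5361 in alveolar macrophages themselves. The 10 neutrophil markers summed to 2112 to 3198 CPM in p21Het, 181 to 1040 for p21mTert, 588 to 877 in p21mTertCD and 804 in WT, against 138084 to 219644 in neutrophils, with no overlap between p21Het and the other groups, and their part in the result was not tested. The 8 interstitial macrophage markers summed to 36.9 to 148 CPM in p21Het, 24.5 to 49.4 for p21mTert, 45.0 to 61.0 in p21mTertCD and 122 in WT. Ly6c2, a classical monocyte gene used in their gate, was at 810 to 833 CPM in p21Het classical monocytes, 844 in WT, 903 to 1053 in p21mTert and 1343 to 1382 in p21mTertCD. Like Il18 it was higher in both mTert groups than in p21Het without overlap, and its part in the result was not tested. The whole classical monocyte marker list, by contrast, overlapped between the groups. It summed to 4397 to 7091 CPM in p21Het, 4714 to 5786 in p21mTert, 6307 to 6313 in p21mTertCD and 5665 in WT. Non-classical monocyte markers overlapped too: 304 to 371 CPM in p21Het, 304 to 452 in p21mTert, 246 to 406 in p21mTertCD and 350 in WT. In non-classical monocytes Il18 differed by 0.29 between p21mTertCD and p21Het (edgeR adjusted p = 1.0).

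**Figure D5:**
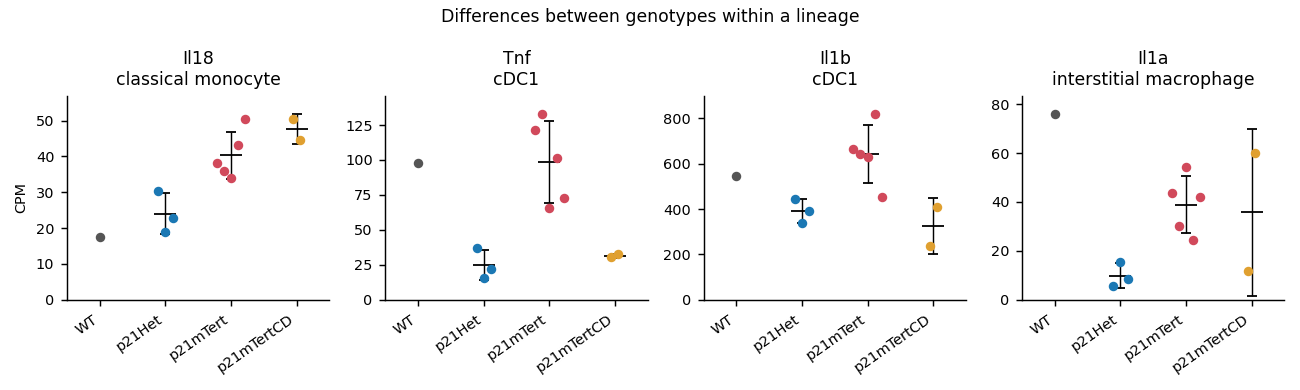
CPM (y axis) of Il18 in classical monocytes, Tnf and Il1b in cDC1 and Il1a in interstitial macrophages, per library (points) and genotype (x axis); bars give mean and SD. All p21mTert points lie above all p21Het points in each panel, while only Il18 (p21mTertCD against p21Het) and Tnf (p21mTert against p21Het) were called by edgeR. Of genes with a mean of at least 5 CPM, 1.35% were so separated in classical monocytes, 1.06% in cDC1 and 1.12% in interstitial macrophages. The Il1a panel was chosen after its values were seen.

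Among the pathway's 67 other genes, none of the 60 tested passed in all filtered cells, and 1 of 2601 lineage tests over the 3 contrasts did, against 0.0438% of all gene tests in these fits. At an unadjusted p under 0.05 there were 230 (8.84%), against 5.67% of all gene tests, in lists chosen with earlier results of these data known. That one was Tnf, the gene of tumour necrosis factor, which IL-1 signalling can induce, in cDC1, the cross-presenting dendritic cells. It was at 97.8 CPM in WT, 37.1, 15.5 and 22.0 for p21Het, 121, 133, 65.4, 101 and 72.9 for p21mTert, and 30.3 and 32.4 in p21mTertCD. All p21mTert libraries were above all p21Het libraries, as in 1.06% of 8265 genes with a mean of at least 5 CPM in cDC1. They were also above both p21mTertCD libraries, but no share over all genes was computed for this, so it cannot be set against other genes. WT too lay above p21Het and p21mTertCD. Its cDC1 also held 265 CPM of interstitial macrophage markers against 1.32 to 10.9 in the other libraries.

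The Tnf difference of p21mTert from p21Het was 2.21 (SE 0.28, edgeR adjusted p = 0.00479, background 0.0257%), and 1.87 (adjusted p = 0.0721) without p21Het_2. With shared replicate numbers as a block on the later deposit, it missed the threshold (values in the last section). That from p21mTertCD was 1.63 (SE 0.30, adjusted p = 0.138). Neutrophil markers in cDC1 ranged from 97.0 to 1308 CPM in p21Het, 19.8 to 1082 in p21mTert and 39.1 to 1223 in p21mTertCD, and T cell markers from 3.66 to 36.5, 1.32 to 83.7 and 29.5 to 36.1, with overlap in each case. Alveolar macrophage markers there ranged from 195 to 485 CPM in p21Het, 70.6 to 273 for p21mTert and 137 to 274 in p21mTertCD. WT was at 49.9 CPM, the replicated groups overlapped, and the part of these markers was not tested.

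The IL-1 ligands in cDC1 did not pass the edgeR test. Il1b was at 547 CPM in WT, 443, 337 and 390 for p21Het, 666, 644, 630, 819 and 454 for p21mTert, and 237 and 411 in p21mTertCD. Every p21mTert library exceeded every p21Het library, as in 1.06% of 8265 genes in cDC1. They exceeded both p21mTertCD libraries too, but no share over all genes was computed for this, so it cannot be set against other genes. The difference from p21Het was 0.79 (SE 0.19, edgeR adjusted p = 0.268, DESeq2 adjusted p = 0.0136), and that from p21mTertCD 0.97 (SE 0.22, edgeR adjusted p = 0.427). Il1a differed by 1.38 (SE 0.55, edgeR adjusted p = 0.897) from p21Het, with overlap.

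Il1a in interstitial macrophages, a pair singled out after its values were seen, was at 76.0 CPM in WT, 5.57, 15.4 and 8.28 for p21Het, 43.5, 30.0, 54.1, 24.4 and 42.2 for p21mTert, and 11.7 and 60.1 in p21mTertCD. The p21mTert libraries lay above p21Het, as 1.12% of 9088 genes did in these cells, and the p21mTertCD libraries were split. The difference of 1.81 (SE 0.51) from p21Het had an edgeR adjusted p of 1.0 and a DESeq2 adjusted p of 0.112, on 4 to 46 Il1a UMIs per p21Het library. Alveolar macrophage markers in these cells ranged from 19.5 to 97.3 CPM in p21Het, 9.43 to 171 in p21mTert and 26.1 to 39.3 in p21mTertCD. WT was at 97.7 CPM.

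The other pathway lists gave no call beyond Tnf. In p21mTert against p21Het, 0 of 267 lineage tests of 20 inflammasome genes passed (16 at an unadjusted p under 0.05, median log2 difference 0.02), 0 of 314 of 16 signalling genes (18, median -0.04), 0 of 76 of 6 receptor genes (4, median -0.01), 0 of 2 of 1 ligand gene (1, median -1.06) and 1 of 208 of 15 response genes (36, median 0.04). At an unadjusted p under 0.05 this was 17.3% of tests for response genes, 5.99% for inflammasome genes, 5.73% for signalling genes and 5.26% for receptor genes, where 5.11% of all gene tests were. The tests of 1 gene in several lineages are not independent. These lists were chosen with earlier results of these data known, so the shares are no test of an excess. The medians over all genes of these fits lay between -0.01 and 0.02.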

How the data were processed

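Per the file headers and the labels, the deposited values were UMI counts per gene and cell, made by the authors with Cell Ranger on mm10, with no normalization, and the version is not given here because the sources differ on it. Groups came from the genotype labels. Barcodes of 1000 to 30000 UMIs, no more than 14% of them mitochondrial, were kept, and lineages were gated when at least 3 of a lineage's markers were detected and its score led the next by 0.5. Near the gate's limits lay at most 6.93% of a lineage's cells, 0.858% of neutrophils, 1.70% of classical monocytes and 0.687% of cDC1. The ungated cells were 11.3%. Scrublet (scanpy 1.11.5, Python 3.11.15) marked 0.991 to 3.89% of cells per library by its own threshold. For the alternative without likely doublets, the highest-scoring cells were taken at an assumed rate of 0.8% per 1000 barcodes, which is 4.55 to 8.42% of cells.

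UMIs were summed per library and lineage with at least 20 cells and given as CPM (scaled to 1000000 UMIs). Genotypes were compared with edgeR 4.0.16 (R 4.3.3; filterByExpr, TMM, quasi-likelihood test, Benjamini-Hochberg over all genes of a fit, threshold 0.05), with DESeq2 1.42.0 as an alternative. The edgeR script was tested on simulated data. Single values used exact permutation tests. WT, with 1 library, entered no genotype test. The members and lists were chosen with earlier results of these data known. All members were named, with pathway genes called by edgeR, up to 3 genes per list with the highest level in a lineage leading for a member, and the 3 genes most correlated with each member. Il18r1 in mesothelial cells, Il18rap in NK cells, Il1f8 and Il1f10 were added after their values were seen.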

Additional observations from a re-analysis of the deposited data

Results flagged for a closer look

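In gamma delta T cells the Il1r1 level of p21mTert_5, 46.9 CPM, stood apart from the other 4 p21mTert libraries, the nearest of which was at 133 and the highest at 162 CPM. Its gap was 0.750 of the group's range, above Dixon's 95% critical value of 0.710. Among 25 groups of 5 libraries examined this was the 1 result past that value, where chance gives about 1 in 20.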

How the results depend on the processing

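In all filtered cells the count of members called was 0 in every contrast under all 17 alternatives. Within lineages it moved. For p21mTert against p21Het it was 2 of 118 with DESeq2 (0.0963% of all gene tests were called), 15 of 255 without the filter on low counts (0.493%), 1 of 121 with the deposit as a term (0.041%), 1 of 122 in the later deposit alone (0.0779%) and 0 to 1 with 1 library left out (0.0150 to 0.0828% of all gene tests). For p21mTert against p21mTertCD it was 3 of 115 with DESeq2 (0.245%), 14 of 255 without the filter (0.578%) and 0 to 5 with 1 library left out (0.0152 to 1.45% of all gene tests), the 5 of 142 coming without p21mTertCD_2 at that 1.45%. For p21mTertCD against p21Het it was 10 of 255 without the filter (0.527%) and 0 to 7 with 1 library left out (0 without p21Het_3 or p21mTertCD_1, 7 of 142 without p21mTertCD_2, against 1.66%; 0.0256 to 1.66% over these fits). With the replicate block, fitted on the later deposit, the counts were 2, 1 and 4 of 111, against 0.236%, 0.0993% and 0.22% of all gene tests. The cause was not tested. Where 1 p21mTertCD library was left out, the other was assumed to vary like the other groups.

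The number of members whose leading lineage passed, adjusted over the 10, was 4 in the later deposit alone and 5 without likely doublets, against 8. At an unadjusted p it was 6 in both, against 38.1% and 38.6% of all genes. Without likely doublets the lost differences were 1.07 for Il18 (3 of 3 libraries), 1.44 for Il1rl1 (4 of 4) and 0.63 for Nlrp3 (6 of 6, adjusted p = 0.0521), against 1.05, 1.79 and 0.65. In the later deposit they were 0.95 for Il18 (6 of 6), 0.93 for Il33 (6 of 7), 1.74 for Il1rl1 (4 of 4) and 0.64 for Nlrp3 (3 of 3). Gamma delta T cells against adventitial fibroblasts for Il1r1 gave -0.010 under the stricter gate. The log2 ratio of Il1rn to Il1b ranged, with 1 library left out, from -0.41 to 0.27 (p21mTert against p21Het), -0.78 to 0.31 (p21mTert against p21mTertCD) and -0.47 to 0.62 (p21mTertCD against p21Het, -0.10 in the later deposit alone). The neutrophil share difference ranged from -8.64 to 2.40, -6.11 to -0.12 and -5.53 to 5.52 percentage points.

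For p21mTert against p21Het in all filtered cells, leaving out 1 library gave -0.64 to 0.37 for Il1a, -0.87 to 0.42 for Il1b, -0.72 to 0.0066 for Il1rn, -1.47 to 1.14 for Il1r2, -0.24 to 0.064 for Il18, -0.74 to 0.18 for Il33, -0.67 to 0.45 for Nlrp3 and -0.16 to 0.037 for Casp1. Within lineages it gave -0.23 to 0.45 for Il1r2 and -0.51 to 0.14 for Il1rn in neutrophils, -0.46 to 0.31 for Il1a and -0.060 to 0.52 for Il18 in alveolar macrophages, -0.51 to 0.17 for Il33 in AT2 and -0.28 to 0.13 for Il1r1 in gamma delta T cells. Il1r2 in neutrophils was -0.0026 without the filter, -0.014 with the deposit term, -0.15 in the later deposit and -0.081 with the replicate block. Il1rn there was 0.0034 under the stricter gate. Il1r1 in gamma delta T cells was 0.034 with the deposit term, 0.10 in the later deposit, 0.46 with the replicate block and 0.077 under the stricter gate. Il1rl1 in ILC2 was 0.0028 in the later deposit, and Il33 in all cells 0.33 with the replicate block.

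The labels give 4 pairs of libraries a shared number. Their deviations from the group means were correlated at 0.23 for p21mTert_2 and p21mTertCD_2 and at -0.51 to 0.0020 for the other pairs (8824 genes), so the numbers were not taken to pair the libraries. p21Het_1 and p21mTert_1 carry no number in the labels and were not in this check or the block. With the block, Il18 in classical monocytes gave 1.12 (edgeR adjusted p = 0.0583) for p21mTertCD against p21Het and Tnf in cDC1 2.52 (adjusted p = 0.309).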
